A study of Mus musculus with 14 samples.

Results

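The maturation of the mouse retina was followed in whole tissue at 3 ages, an embryonic one (e16.5, day 16.5 of gestation), an early postnatal one (P7, day 7 after birth) and an adult one (P60, day 60 after birth). The libraries were chosen by their labels: 5 of the 14 libraries of the series are whole retina, of which 3 are of age e16.5, 1 is of age P7 and 1 of age P60. The other 9 are sorted retinal microglia of the same ages and enter only where a value is set against them. All 5 whole retina libraries carry the strain label C57BL/6 and the genotype label WT, and the labels name no transgene or treatment for them. At e16.5 only central retina was dissected, per the labels, whereas the postnatal libraries were made from whole retina, so that region and age cannot be told apart at the first step. The labels name no animals or pools for whole retina, and the 3 e16.5 libraries have replicate numbers only. Replicate 3 held almost no RNA of the Y chromosome and so is not the same material as the others. Whether the spread between replicates 1 and 2 is technical was not tested. RNA was measured by sequencing. The question is which transcripts the retina gains and loses as it matures, and at which of the 2 steps.

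The retina forms from dividing progenitor cells that leave the cell cycle and become ganglion cells, cones, horizontal cells and amacrine cells first, and rods, bipolar cells and Mueller glia later. In the mouse, e16.5 falls in the period of early neuron production, at P7 nearly all cells of the central retina have been born and photoreceptors are building their outer segments, and at P60 the tissue is mature. Rods, the photoreceptors of dim light, make up most cells of the adult mouse retina and use a cascade in which light switches on the G protein transducin, which activates a phosphodiesterase that lowers cGMP and closes cGMP-gated channels.

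The libraries held 20469100, 21981036 and 20871999 counts at e16.5, 24361772 counts at P7 and 22205695 counts at P60. Levels are given in CPM, which are counts scaled to the depth of the library, here with TMM factors, and ratios are on a log2 scale after adding 0.5 CPM, which understates the change of genes with low levels. Of 20902 genes in the table, 14810 had a mean over the ages of at least 1 CPM and were kept. A gene is said to have risen or fallen when its level differed at least 2-fold and, against e16.5, also lay outside the range of the 3 e16.5 libraries. Ranked genes are kept genes with at least 10 CPM at the higher age. They leave out unnamed, ribosomal, mitochondrial and histone genes and pseudogenes. No test was made, since the spread between libraries was not measured at P7 or P60, and every ratio that involves them has no replicate check. Between the e16.5 libraries, 0.918% to 1.13% of the kept genes differed 2-fold in a pair, and the median SD of log2 CPM was 0.11. These libraries were not uniform. The genes Ddx3y, Eif2s3y, Kdm5d and Uty of the Y chromosome were high in all libraries other than e16.5 replicate 3, where Ddx3y stood at 0.101 CPM against 64.1 and 76.6 in the others. Pigment cell genes were lower in e16.5 replicate 2, with the melanosome gene Pmel at 3.15 CPM against 23.5 and 15.4.

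Between e16.5 and P7, 2553 genes rose (17.2% of those kept) and 2197 fell (14.8%). From P7 to P60, 1521 rose (10.3%) and 1575 fell (10.6%). Over the whole span from e16.5 to P60, 3468 genes rose (23.4%) and 3590 fell (24.2%), among them 370 that rose and 321 that fell at least 16-fold. These shares of all kept genes are the background for the list counts below. The lists were chosen with earlier results of these data known, so their counts describe the choice as well as the retina. The first step and the whole span use the same e16.5 libraries, and both steps share the P7 library. The most frequent course was to change less than 2-fold at both steps, with 8593 genes or 58.0%. Another 1698 genes rose by P7 and then held their level, 774 held and then rose, and 637 rose at both steps. On the falling side, 1423 genes fell by P7 and then held, 693 held and then fell, and 664 fell at both steps. The genes that turned numbered fewer: 218 were highest and 110 lowest at P7. Of the genes that changed by P7, 53.7% were higher at P7. That share depends on the scaling, at 70.7% with total counts, 68.5% with totals that leave out the top 50 genes and 86.0% with the deposited FPKM values rescaled to the same sum. Of the changes from P7 to P60, 49.1% were rises, against 38.7% with total counts, and over the whole span 49.1% were rises, against 78.5% with rescaled FPKM.

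**Figure D1:**
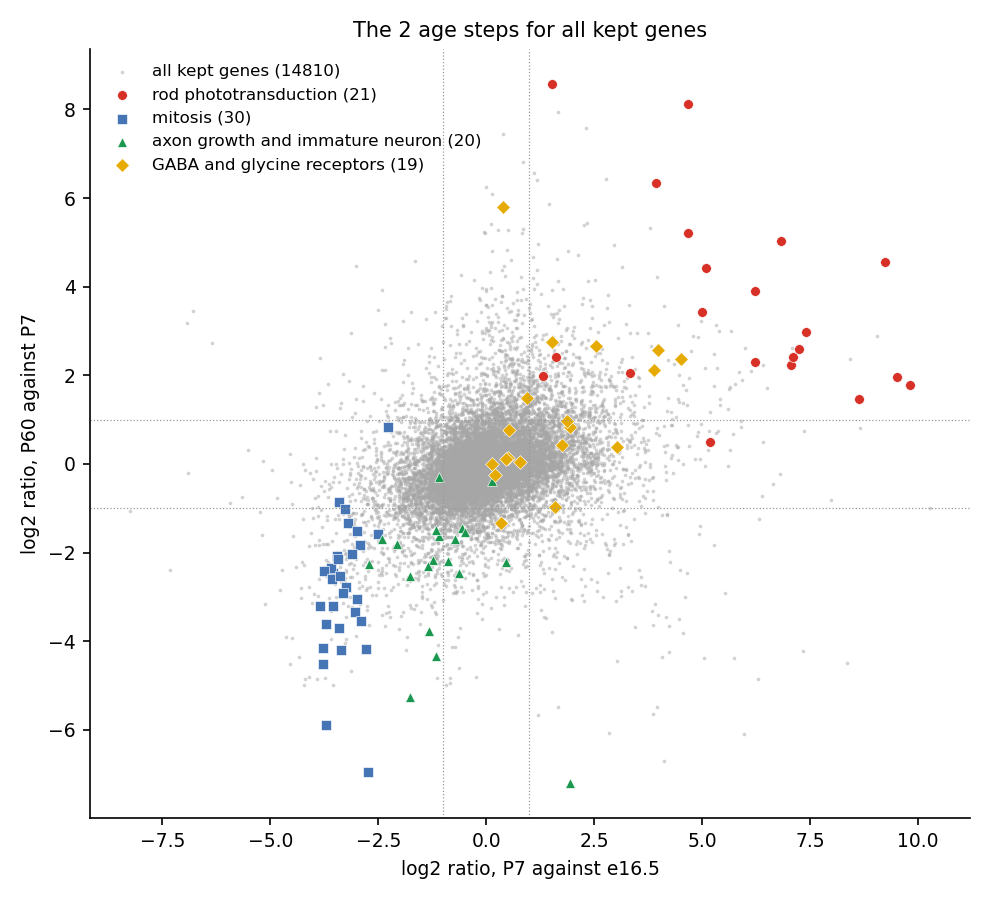
Each grey point is 1 of the 14810 kept genes, placed by its log2 ratio of P7 to the e16.5 mean (horizontal axis) and of P60 to P7 (vertical axis), with 4 gene lists in colour and dotted lines at a 2-fold change. Rod genes sit to the upper right, mitosis genes to the lower left, and genes of immature neurons mostly below the lower dotted line at the second step.

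The largest rises belonged to rods. All 21 genes of the rod phototransduction list rose by P7 and 20 rose again from P7 to P60, with a median log2 ratio of 6.22 at the first step and 2.60 at the second, where 17.2% and 10.3% of all kept genes rose and their medians were -0.07 and -0.07. Gnat1, the alpha subunit of rod transducin (chr9:107674474-107679712, GRCm38), stood at 1.19, 1.08 and 1.06 CPM at e16.5, 40.4 CPM at P7 and 11479.5 CPM at P60. The first gene by counts at e16.5 and P7 was the translation factor gene Eef1a1, with 1.53% to 1.56% and 0.522%. The 21 rod genes together took 0.0513%, 0.0468% and 0.0523% of the counts at e16.5, then 0.872% at P7 and finally 7.46% at P60. In bulk tissue a gain in the number of rods and a gain in RNA per rod cannot be told apart, and the same holds for every cell type below.

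Promoters of these genes were searched for the letters TAATCC, the core recognised by the photoreceptor homeodomain factor CRX, on both strands of the RefSeq windows of GRCm38.p6 that run from 250 bases before the start to 50 bases after it. Of the 21 rod genes, 14 matched a window, and 8 of these (57.1%) held the letters, against 7.06% of all 32851 windows and 7.14% of the kept genes with a window. Other lists held the letters in 5 of 16 bipolar cell genes, 4 of 17 outer segment and cilium genes, 3 of 16 ribbon synapse genes, 1 of 9 cone genes, 1 of 17 progenitor genes, 0 of 26 mitosis genes and 0 of 23 DNA replication genes. The share of cone genes, which are also photoreceptor genes, was thus near that of all windows. The 250 bases before the start are shown for the 3 rod genes with the largest rise to P60 among those that hold the letters there. Windows on 1 chromosome were left out of this choice. TAATCC or its reverse complement is in capitals.
Sag (chr1:87803430-87803679, + strand): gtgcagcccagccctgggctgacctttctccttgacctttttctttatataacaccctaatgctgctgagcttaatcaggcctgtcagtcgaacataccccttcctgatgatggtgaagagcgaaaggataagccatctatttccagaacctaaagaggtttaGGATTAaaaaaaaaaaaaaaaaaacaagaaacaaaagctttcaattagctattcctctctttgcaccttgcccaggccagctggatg
Cngb1 (chr8:95306586-95306835, - strand): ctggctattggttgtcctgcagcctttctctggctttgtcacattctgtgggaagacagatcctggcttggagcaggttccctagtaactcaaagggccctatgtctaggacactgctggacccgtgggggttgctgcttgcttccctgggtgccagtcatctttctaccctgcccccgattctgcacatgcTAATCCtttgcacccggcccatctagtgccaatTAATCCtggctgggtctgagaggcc
Guca1a (chr17:47400607-47400856, - strand): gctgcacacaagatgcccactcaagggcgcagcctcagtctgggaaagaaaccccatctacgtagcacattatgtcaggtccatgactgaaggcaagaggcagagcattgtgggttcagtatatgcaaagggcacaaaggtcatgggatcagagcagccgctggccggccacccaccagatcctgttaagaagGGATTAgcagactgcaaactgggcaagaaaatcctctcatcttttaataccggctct
The first letter of the match lies 87 bases before the start in Sag, 58 and 25 in Cngb1, and 57 in Guca1a. These genes encode rod arrestin, which ends the light response, the beta subunit of the rod cGMP-gated channel, and a calcium sensor of guanylate cyclase. They rose on different schedules: at P7, Cngb1 had reached 36.3% of its P60 level, Sag 25.7% and Guca1a 2.65%. A match is a description of the letters only.

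The rod genes did not rise in step. Set as a percent of the P60 level, the P7 level ran from 0.207% (Guca1b) to 71.3% (Pdc), with a median of 16.5%, and 9 of the 21 genes were under 10%. Pdc, which encodes phosducin, a binding partner of the transducin beta and gamma subunits, stood at 24.8, 28.7 and 24.5 CPM at e16.5, 955 CPM at P7 and 1338 CPM at P60. It was the member that changed less than 2-fold after P7. Pde6b and Pde6a, the catalytic subunits of the rod phosphodiesterase, parted: Pde6b stood at 0.518, 0.688 and 0.404 CPM at e16.5, 935 CPM at P7 and 3202 CPM at P60, and Pde6a at 0.363, 0.344 and 0.152 CPM at e16.5, 89.1 CPM at P7 and 2929 CPM at P60. At P7 Pde6b was thus at 29.2% of its P60 level and Pde6a at 3.04%. Gnat1 was at 0.352%.

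The rod genes under 10% of their P60 level at P7 had mixed roles. They included Gnat1 and Pde6a, which carry the signal on, and genes of calcium feedback, ion transport and the shut-off of the response, while other genes of these roles, such as Sag and Cngb1, were above 10%. Guca1b, a calcium sensor of guanylate cyclase, stood at 0.311, 0.295 and 0.354 CPM at e16.5, 1.84 CPM at P7 and 887 CPM at P60; the P7 value rests on 52 counts, with a 95% Poisson interval of 1.37 to 2.41 CPM that covers counting error only. Slc24a1, the sodium, calcium and potassium exchanger of rods, stood at 0.363, 0.0983 and 0.152 CPM at e16.5, 10.2 CPM at P7 and 866 CPM at P60. Grk1, the kinase that starts this shut-off in rods, stood at 2.8, 1.92 and 2.93 CPM at e16.5, 227 CPM at P7 and 3382 CPM at P60. Rcvrn, the gene of recoverin, which binds this kinase, was at 12.6% of its P60 level at P7 and stood at 0.104, 0.0492 and 0.0506 CPM at e16.5, 95.7 CPM at P7 and 758 CPM at P60. The retinal guanylate cyclases also differed, with Gucy2e at 20.1% of the P60 level at P7 and Gucy2f at 4.59%. The smallest rises over the whole span were those of Gnb1 and Gnb5, G protein beta subunits that many neurons use, with log2 ratios of 3.31 and 4.04.

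**Figure D2:**
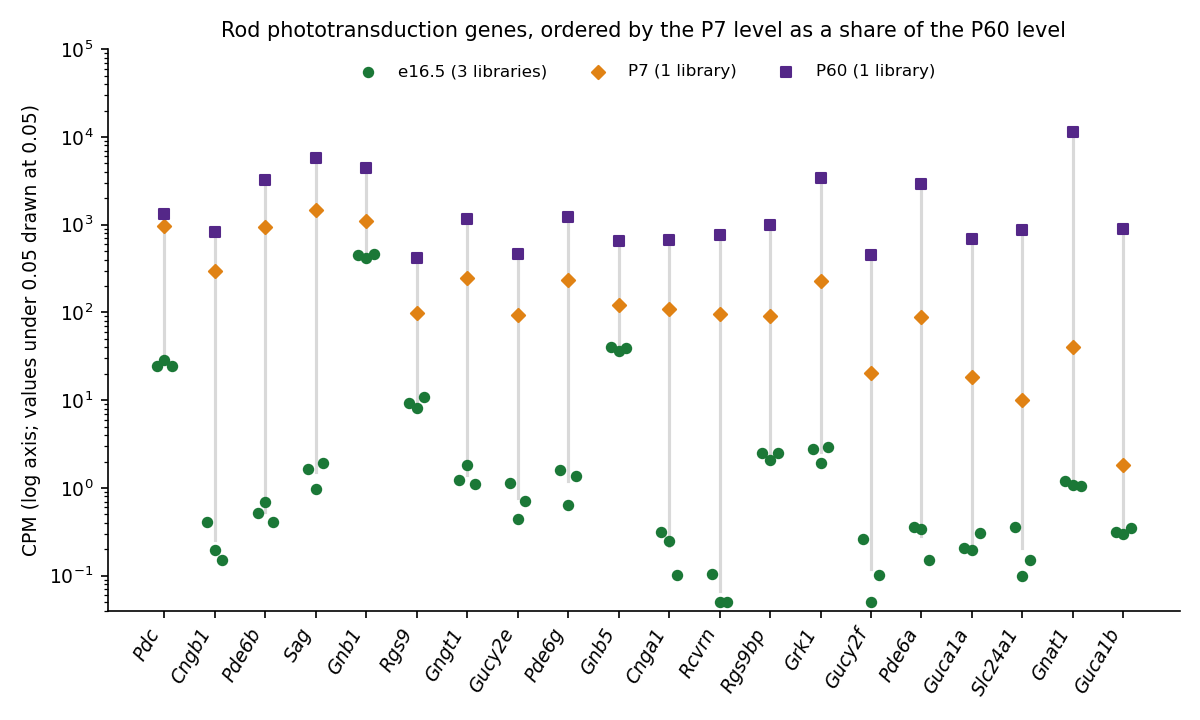
Level of 20 of the 21 rod phototransduction genes in CPM (log axis) in the 3 e16.5 libraries (circles), the P7 library (diamonds) and the P60 library (squares), ordered from left to right by the P7 level as a share of the P60 level. Pdc at the left had reached 71.3% of its P60 level at P7, Cngb1 36.3% and Guca1b at the right 0.207%.

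Genes of the outer segment and its connecting cilium were closer to their adult levels at P7 than the rod phototransduction genes were. Of 22 genes, 20 rose by P7 and none fell, where 17.2% and 14.8% of all kept genes did. From P7 to P60 10 rose, where 10.3% of all kept genes did. The median P7 level was 58.8% of the P60 level. Rp1, a microtubule protein of the axoneme, stood at 6.63, 4.08 and 5 CPM at e16.5, 2298 CPM at P7 and 4038 CPM at P60. Prph2, the disc rim protein peripherin 2, stood at 2.8, 2.21 and 1.87 CPM at e16.5, 953 CPM at P7 and 4941 CPM at P60. Rpgrip1, a cilium protein, stood at 7.05, 5.7 and 6.82 CPM at e16.5, 342 CPM at P7 and 331 CPM at P60. Rpgrip1 thus changed little between P7 and P60, while Prph2 rose further, by 2.37 on the log2 scale. Fscn2, which encodes an actin bundling protein of photoreceptors, was the latest of the list, at 4.36% of the P60 level. Rpgr fell over the whole span, at 48.8, 52.5 and 46.3, then 37.4 and 20.5 CPM, and Spata7, at 18.9, 22 and 21, then 23 and 27.7 CPM, changed less than 2-fold.

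The visual cycle returns bleached chromophore to its light-sensitive form and is shared between photoreceptors, Mueller glia and pigment epithelium. Of 13 kept genes, 10 rose by P7 and 9 rose from P7 to P60, where 17.2% and 10.3% of all kept genes did, and none fell. The photoreceptor members Abca4, a transporter of the disc membrane, and Rbp3, the retinoid carrier between the cell layers, stood at 5.7, 4.87 and 5.76, then 248 and 1979 CPM and at 94.7, 72.4 and 81.6, then 1615 and 3658 CPM. Rdh8, a photoreceptor retinol dehydrogenase, had 1 count in all 3 e16.5 libraries and reached 19.5 and 67 CPM. Rpe65, the isomerase of the pigment epithelium, had 0 counts at e16.5 and reached 1.1 and 17.3 CPM, and Lrat, its partner enzyme there, stood at 0.466, 0.246 and 0.607, then 1.06 and 16.8 CPM. Of 8 kept genes of pigment epithelium and choroid, 4 rose by P7 and 5 over the whole span, and none fell over the span. Of all kept genes 17.2% rose by P7 and 23.4% over the span. Ttr, the gene of transthyretin, stood at 2.8, 0.344 and 1.87, then 20 and 66.6 CPM, and Dct, a pigment enzyme, at 5.29, 1.33 and 3.49, then 17.7 and 13.2 CPM. Tyr and Pmel were not called over the span, at 4.2, 0.295 and 2.88, then 3.32 and 3.63 CPM and at 23.5, 3.15 and 15.4, then 21.1 and 3.76 CPM. How much pigment epithelium each dissection carried was not tested.

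The transcription factors of photoreceptors took a course of their own. Of 16 genes, 11 rose by P7 and none fell, where 17.2% and 14.8% of all kept genes did. From P7 to P60, however, 2 rose and 3 fell, where 10.3% and 10.6% did. The median P7 level was 148% of the P60 level. Nr2e3, the nuclear receptor that represses cone genes in rods, had the largest rise by P7 of the ranked genes. It stood at 0.829, 0.442 and 0.657 CPM at e16.5, 1411 CPM at P7 and 711 CPM at P60. Nrl, the leucine zipper factor that sets rod fate, stood at 7.41, 5.31 and 5.61 CPM at e16.5, 1091 CPM at P7 and 1839 CPM at P60, and Crx at 164, 161 and 149.6 CPM at e16.5, 1470.5 CPM at P7 and 1245 CPM at P60. Nr2e3 and Crx were thus at least as high at P7 as at P60, whereas the median rod phototransduction gene was at 16.5% of its P60 level. Factors that act early in photoreceptor and bipolar precursors fell after P7: Otx2 stood at 208, 201 and 193, then 732 and 166 CPM, and Prdm1, the gene of BLIMP1, at 94, 96 and 83.7, then 153 and 10.1 CPM. The rises from P7 to P60 were those of Mef2c (2.02, 1.87 and 0.859, then 8.52 and 235 CPM) and of Esrrb (2.64, 2.31 and 3.34, then 16.1 and 291 CPM), an orphan nuclear receptor of rods.

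Of 12 kept cone genes, 10 rose by P7 and 8 from P7 to P60, where 17.2% and 10.3% of all kept genes did. The opsins differed: Opn1sw, the short wavelength opsin, stood at 4.87, 3.69 and 2.38, then 138 and 615 CPM, and Opn1mw, the middle wavelength opsin, at 0, 0.0492 and 0, then 0.424 and 103 CPM, which put Opn1mw at 0.411% of its P60 level at P7. The cone transducin gamma gene Gngt2 rose by P7 and then fell, at 53.8, 49.2 and 46.8, then 194 and 56.4 CPM.

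Genes of the cell cycle fell together. All 30 DNA replication genes and all 30 mitosis genes were lower at P7, with medians of -3.01 and -3.38 on the log2 scale, where 14.8% of all kept genes fell. From P7 to P60 the lists parted: 28 of 30 mitosis genes fell again but 15 of 30 replication genes did, with medians of -2.68 and -1.01, beside 10.6% of all kept genes. At P60 the median mitosis gene stood at 1.02% of its e16.5 level, and the median replication gene at 6.49%. At P60, 14 mitosis genes but 2 replication genes were under 1% of e16.5. The difference between the lists was not tested.

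Cells that divide express these genes, and their RNA falls when division stops. Mki67, the gene of the proliferation antigen Ki-67 (chr7:135689784-135716361), stood at 614, 756 and 636 CPM at e16.5, 99.1 CPM at P7 and 0.303 CPM at P60. Top2a, the topoisomerase that untangles replicated DNA, stood at 1538, 1844 and 1514 CPM at e16.5, 124 CPM at P7 and 1.6 CPM at P60. Cdk1, the kinase that starts mitosis, stood at 194, 202 and 196 CPM at e16.5, 13.9 CPM at P7 and 0.303 CPM at P60. In each of the 3 the P7 library lay below every e16.5 library and the P60 library lay lower still. The 3 genes rank among the largest falls to P60, so this order follows in part from their choice. Among replication genes, the level left at P60 differed widely. Rrm2, the regulatory subunit of ribonucleotide reductase, and Uhrf1, which guides maintenance methylation of new DNA, were at 0.11% and 0.147% of e16.5. The helicase subunits Mcm2, Mcm3, Mcm4, Mcm5, Mcm6 and Mcm7 stood between 1.59% and 8.82%. Other members kept more: Pcna, the sliding clamp, stood at 13.8%, Fen1, a flap nuclease, at 18.5% and Rrm1, the catalytic subunit of the reductase, at 12.4%, with the cyclin Ccne1 at 33% and Pola1 at 40.2%. Lig1, a DNA ligase, stood at 8.51%.

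Some cell cycle genes did not keep falling. Pola1, a subunit of the DNA polymerase that primes replication, stood at 149, 166 and 137, then 39 and 60.6 CPM, and Bub1b, a spindle checkpoint kinase, at 192, 204 and 183, then 39.5 and 71 CPM. Both were higher at P60 than at P7 by less than 2-fold, and with FPKM rescaled to the same sum Pola1 was higher at P60 than at e16.5. Outside these lists, 68 ranked genes, with at least 10 CPM at their higher age, fell by P7 and rose again by P60. The 8 with the largest smaller step included Gpsm2, a spindle orientation protein, Spc25, a kinetochore subunit, and Diaph3, an actin nucleator. Gpsm2 stood at 112, 122 and 120.0 CPM at e16.5, 21.8 CPM at P7 and 337 CPM at P60, Spc25 at 138, 141 and 136 CPM at e16.5, 26.7 CPM at P7 and 118 CPM at P60 and Diaph3 at 18.4, 22.6 and 22.9 CPM at e16.5, 5.23 CPM at P7 and 53.1 CPM at P60. For Gpsm2 and Diaph3 the adult library was the highest of all 5, while Spc25 came back to just under its e16.5 level. The other 5 were Efemp1, Scara3, Met, Stk17b and Tpbg, with P60 levels from 15.6 to 40.5 CPM.

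Promoters of cell cycle genes were searched for other letters. The cell cycle homology region TTTGAA was present on either strand in 20 of 26 mitosis genes with a window (76.9%), against 17.9% of all windows and 14.2% of kept genes, and in 6 of 16 bipolar cell genes and 3 of 23 replication genes. The CCAAT box was present in 20 of 26 mitosis genes (76.9%), against 37.4% of all windows and 43.1% of kept genes, but also in 12 of 17 progenitor genes, 11 of 17 outer segment genes, 10 of 16 bipolar cell genes and 7 of 14 rod genes. The E2F core TTCCCGC was present in 10 of 23 replication genes (43.5%) and in 0 of 26 mitosis genes, against 4.6% of all windows and 9.54% of kept genes. The 250 bases before the start are shown for Uhrf1, with TTCCCGC or its reverse complement in capitals, and for Mki67 and Top2a, with TTTGAA or its reverse complement in capitals, as the members with the largest falls to P60 that hold the letters there. Windows on the chromosome left out of the choice of rod genes were left out here too.
Uhrf1 (chr17:56303087-56303336, + strand): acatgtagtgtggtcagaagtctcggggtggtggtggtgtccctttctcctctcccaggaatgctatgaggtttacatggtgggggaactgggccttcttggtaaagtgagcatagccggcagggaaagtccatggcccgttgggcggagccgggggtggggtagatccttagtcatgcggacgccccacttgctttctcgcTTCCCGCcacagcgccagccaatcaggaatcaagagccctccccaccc
Mki67 (chr7:135716380-135716629, - strand): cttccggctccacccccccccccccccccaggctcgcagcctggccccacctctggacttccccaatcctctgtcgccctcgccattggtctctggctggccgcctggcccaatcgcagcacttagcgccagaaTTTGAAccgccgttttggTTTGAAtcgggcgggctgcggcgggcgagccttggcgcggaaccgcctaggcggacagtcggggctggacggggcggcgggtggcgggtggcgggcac
Top2a (chr11:99024190-99024439, - strand): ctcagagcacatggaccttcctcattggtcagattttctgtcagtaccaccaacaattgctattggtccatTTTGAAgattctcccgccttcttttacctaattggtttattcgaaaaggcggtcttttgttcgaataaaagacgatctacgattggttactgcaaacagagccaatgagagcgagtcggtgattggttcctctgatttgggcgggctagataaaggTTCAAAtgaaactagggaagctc
Uhrf1 has another annotated start, which is not shown. At P7 these 3 genes stood at 4.27%, 14.8% and 7.61% of the e16.5 mean.

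**Figure D3:**
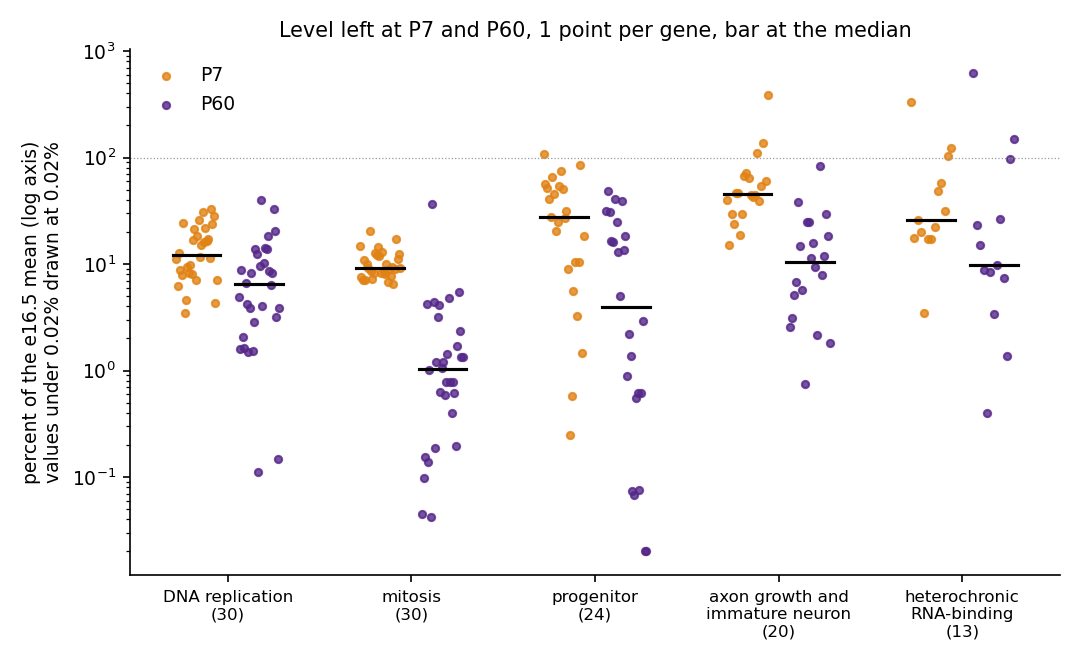
Level at P7 (orange) and P60 (purple) as a percent of the e16.5 mean (log axis), 1 point per gene, for 5 lists that fell, with black bars at the medians. Mitosis genes went from a median of 9.23% at P7 to 1.02% at P60, DNA replication genes from 12.1% to 6.49%.

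Genes of retinal progenitors and of the first neurons fell at different times. All 24 progenitor genes were lower at P60, where 24.2% of all kept genes were, 16 of them already at P7, and 16 fell after P7. Atoh7, the factor that makes progenitors competent to form ganglion cells, stood at 479.9, 662 and 625 CPM at e16.5, 1.45 CPM at P7 and 0.432 CPM at P60. Its fall by P7 was the largest of the ranked genes. The next was Fgf15, a growth factor of progenitors, which stood at 913, 1012 and 974 CPM at e16.5, 5.55 CPM at P7 and 0.649 CPM at P60, and Foxn4, a factor for amacrine and horizontal fates, at 116, 102 and 125, then 3.71 and 0.0865 CPM. Pax6, kept by amacrine and ganglion cells, fell least, at 522, 551 and 537, then 300.3 and 258 CPM. The range was thus wide, from genes nearly gone at P7 to genes that kept a share of their level in the adult. Ccnd1, the cyclin of retinal progenitors, stood at 4447, 4034 and 4543 CPM at e16.5, 451 CPM at P7 and 26.9 CPM at P60.

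Of the 19 kept Notch pathway genes, 9 fell by P7 and 10 from P7 to P60, where 14.8% and 10.6% of all kept genes did. Hes5 and Hes1, effectors of the receptor, stood at 182, 151 and 157, then 40.3 and 8.21 CPM and at 152, 159.8 and 155, then 31.5 and 20.1 CPM, and the ligand Dll3 at 54.7, 47.6 and 44.8, then 13.4 and 0.432 CPM. The ligand Jag1 went the other way, at 8.4, 9.83 and 7.99 CPM at e16.5, 30.4 CPM at P7 and 209.9 CPM at P60. Of the 24 Wnt and Hedgehog pathway genes, 14 fell by P7 and 2 rose, where 14.8% and 17.2% of all kept genes did. The Hedgehog target Gli1 stood at 24.8, 26.8 and 27, then 1.1 and 0.0432 CPM, while Ptch1, the receptor and another target, changed less than 2-fold, at 91.4, 96 and 97.6, then 83.2 and 87.5 CPM. Dkk3, an abundant secreted protein of Mueller glia in the adult, fell by P7 and then rose, at 1511, 1511 and 1479.9, then 413 and 876 CPM.

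Regulators of developmental timing fell. Of 13 kept genes of fetal RNA binding and growth control, 9 fell by P7 and 10 were lower at P60, where 14.8% and 24.2% of all kept genes were. Igf2bp1, an RNA-binding protein of fetal tissue, stood at 147, 148 and 161 CPM at e16.5, 5.27 CPM at P7 and 0.605 CPM at P60, and its relative Igf2bp3 at 129.8, 150.4 and 137, then 24 and 4.76 CPM. The list was not uniform. Lin28b, which blocks let-7 maturation, stood at 8.19, 12.5 and 10.4, then 1.8 and 2.42 CPM, whereas Lin28a rose from a low level, at 0.622, 0.787 and 0.455, then 2.09 and 3.85 CPM. Hmga1, a chromatin protein, stood at 395, 346 and 392, then 98.5 and 57.3 CPM, and Mycn at 128, 132 and 125, then 74.4 and 9.38 CPM.

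Of 20 kept ganglion cell genes, 13 fell by P7 and 3 rose, where 14.8% and 17.2% of all kept genes did. The factors Pou4f1 and Pou4f2 stood at 146, 132 and 133, then 35.3 and 24 CPM and at 56.2, 53.4 and 58.8, then 9.65 and 6.92 CPM, while Nefh, the heavy neurofilament of mature axons, rose, at 3.27, 3.2 and 4.25, then 29.1 and 108 CPM. Genes of axon growth and immature neurons fell more after P7 than before it: 12 of 20 fell by P7 and 18 from P7 to P60. Their medians were -1.13 and -2.17, and 14.8% and 10.6% of all kept genes fell. Tubb2b, a beta tubulin of young neurons, stood at 2086, 1969 and 2227 CPM at e16.5, 618 CPM at P7 and 15.7 CPM at P60. Dcx, which encodes doublecortin, stood at 140.3, 157 and 124 CPM at e16.5, 55.6 CPM at P7 and 3.59 CPM at P60. Both kept part of their embryonic level at P7 and little at P60. Gap43, a growth cone protein, fell more by P7, to 15.2% of e16.5, at 585, 549 and 652 CPM at e16.5, 90.3 CPM at P7 and 18.4 CPM at P60. Fabp7, a fatty acid binding protein of young glia and progenitors, stood apart, rising to P7 before the largest fall of the ranked genes from P7 to P60. It was at 65.1, 61.6 and 58.3 CPM at e16.5, 238 CPM at P7 and 1.12 CPM at P60. Map1b was the abundant member that held, at 1286, 1268 and 1255, then 1390.3 and 1065 CPM.

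Axon guidance genes did not move as a body. Of 31, 9 rose and 8 fell by P7, where 17.2% and 14.8% of all kept genes did. After P7 0 rose and 11 fell, where 10.3% and 10.6% did. Netrin 1 (Ntn1), made at the optic disc, stood at 9.74, 13.2 and 14.6, then 1.52 and 1.43 CPM. Plxna2 and Unc5d rose, at 59, 51.1 and 49.1, then 289 and 151 CPM and at 3.11, 3.29 and 2.63, then 21.9 and 25.5 CPM. Robo3, a Slit receptor family member, was highest at P7, at 2.38, 1.87 and 2.07 CPM at e16.5, 27.7 CPM at P7 and 1.69 CPM at P60. The list thus held rises and falls at the first step and falls alone at the second. The ephrin receptor Ephb2 stood at 325, 325 and 342, then 120.1 and 36 CPM and Epha4 at 71.1, 73.9 and 66.3, then 67.2 and 95.8 CPM.

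Synapse genes rose mainly before P7. Photoreceptors and bipolar cells release glutamate at ribbon synapses, which hold vesicles on an electron-dense plate. Of 20 ribbon synapse genes, 17 rose by P7 and 9 rose after it, where 17.2% and 10.3% of all kept genes did, and none fell. Cacna1f, the calcium channel of photoreceptor terminals, stood at 0.466, 0.442 and 0.202 CPM at e16.5, 60.3 CPM at P7 and 258 CPM at P60. Cplx4, a complexin of ribbon synapses, stood at 1.5, 1.57 and 1.36 CPM at e16.5, 61.8 CPM at P7 and 583 CPM at P60, and Cabp4, which tunes the channel, at 0.104, 0.197 and 0.0506 CPM at e16.5, 9.05 CPM at P7 and 176 CPM at P60. Cabp4 was the latest of the list, at 5.13% of its P60 level at P7. By contrast, Dmd and Egflam, the genes of dystrophin and pikachurin at the photoreceptor terminal, had reached their adult levels, at 70.6, 80.9 and 70.9, then 566 and 570.1 CPM and at 54.2, 46.8 and 40.6, then 286 and 284 CPM. Among 18 general synaptic vesicle genes, 13 rose by P7 and 3 after it, beside the same 17.2% and 10.3% of all kept genes. Stx1a, the syntaxin of conventional synapses, fell from P7 to P60, at 21.9, 19.1 and 23.1, then 18.9 and 6.23 CPM, and Stx3, the syntaxin of ribbon synapses, rose at both steps, at 24.5, 22.4 and 22.7, then 469 and 946 CPM.

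Of 20 bipolar cell genes, 15 rose by P7 and 11 from P7 to P60, where 17.2% and 10.3% of all kept genes did. Grm6, the glutamate receptor of ON bipolar cells, had 0 counts in all 3 e16.5 libraries and stood at 29.1 CPM at P7 and 52.4 CPM at P60. Trpm1, the channel it controls, came later, at 4.46, 0.688 and 4.65, then 34.8 and 314 CPM. Its e16.5 value was lowest in replicate 2, as were those of the pigment cell genes Pmel and Tyr. The cell source of Trpm1 was not tested. Of 19 amacrine and horizontal cell genes, 12 rose by P7, beside the same 17.2% of all kept genes. Gad1 and Gad2, the enzymes that make GABA, parted: Gad1 stood at 2.54, 1.38 and 1.62, then 100 and 277 CPM, and Gad2 at 33, 28.2 and 29.5, then 15.1 and 43.4 CPM.

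Receptors and channels showed exchanges between related genes. Of 19 glutamate receptor genes 14 rose by P7, of 19 genes of GABA and glycine signalling 10, and of 22 voltage-gated channels and pumps 13. Of all kept genes 17.2% did. None of the first 2 lists fell by P7, and of the third, Atp1b3 did. Levels of 2 genes can be set side by side only per length, and for this the deposited FPKM values were used as ratios within each library for 30 pairs of related genes. The partner gene, by convention the one written over the other below, was the higher in all 3 e16.5 libraries in 6 pairs, at P7 in 15 and at P60 in 16, and in 2 pairs the e16.5 libraries disagreed. The ratio could be formed in all 5 libraries for 28 pairs. At P60 it was at least 2-fold above each of the 3 e16.5 libraries in 20 pairs, 1 of which, Cox6a2 over Cox6a1, was listed at 0 in all 3, and at least 2-fold below each of them in 1 pair. The pairs were chosen for exchanges known in neurons, so these counts describe the choice as well as the retina.

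Slc12a5, the chloride exporter KCC2 that makes GABA inhibitory, stood at 13.9, 7.77 and 10.2 CPM at e16.5, 163 CPM at P7 and 717 CPM at P60, while Slc12a2, the importer NKCC1, changed less than 2-fold, at 59.4, 66.9 and 55.8, then 69.4 and 57.9 CPM. Their FPKM ratio, exporter over importer, was 0.39, 0.218 and 0.305 at e16.5, then 4.5 and 23.1. This ratio lay under 1 in all 3 e16.5 libraries, above 1 at P7 and higher again at P60. The sodium channels exchanged later: Scn1a over Scn3a gave 0.0444, 0.0596 and 0.017 at e16.5, then 0.225 at P7 and 4.11 in the adult. For the beta chain of the sodium pump, Atp1b2 over Atp1b3 stood at 0.0477, 0.0403 and 0.063, then 1.7 and 1.87. The vesicular glutamate transporter of photoreceptors and bipolar cells, Slc17a7, over that of ganglion cells, Slc17a6, gave 0.0124, 0.00554 and 0.0167, then 2.79 and 11.2. In the SNARE pair Vamp2 over Vamp1 the ratio fell, from 7.43, 5.34 and 3.56 at e16.5 to 3.51 at P7 and 0.948 at P60. For Grin2a over Grin2b it was 0.397, 4.08 and 0.665 at e16.5, a wide spread between replicates of 1 age, with 0.161 and 0.251 later, which sets no direction.

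**Figure D4:**
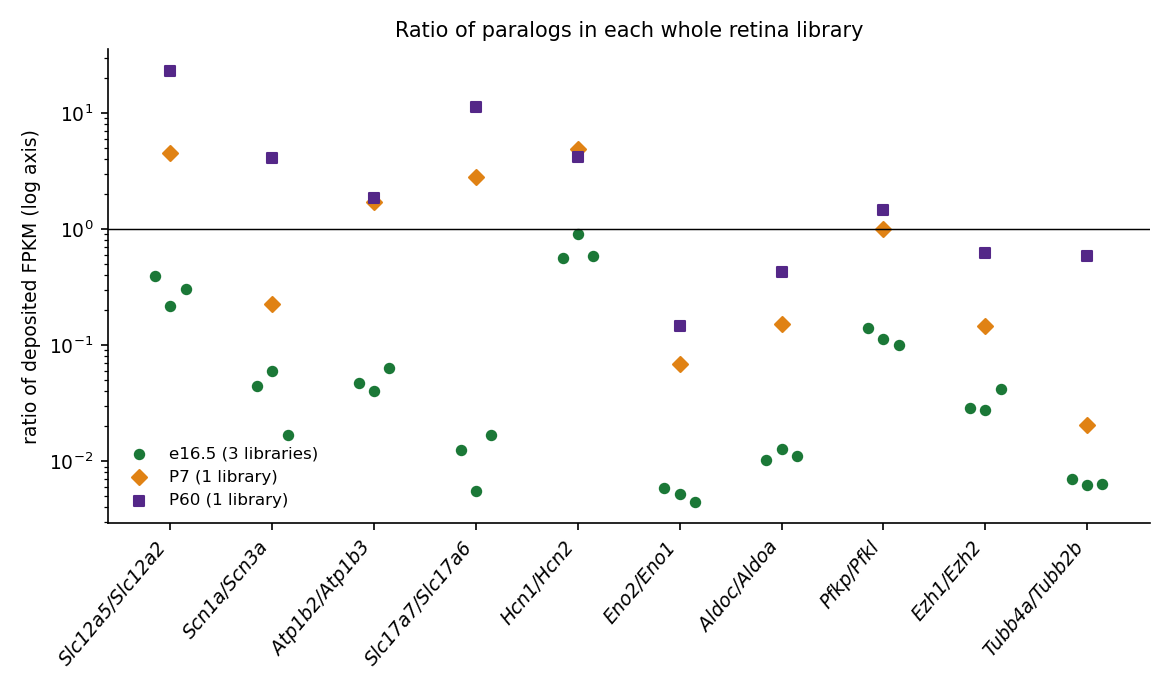
Ratio of deposited FPKM (log axis) of 10 of the 30 pairs of related genes in the 3 e16.5 libraries (circles), the P7 library (diamonds) and the P60 library (squares), with a line at 1. Slc12a5 over Slc12a2 went from 0.39, 0.218 and 0.305 at e16.5 to 23.1 at P60, whereas Eno2 over Eno1 stayed under 1 in all 5 libraries.

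The retina burns glucose largely to lactate. Of 22 glycolysis genes, 4 rose and 3 fell by P7, near the shares of all kept genes (17.2% and 14.8%), and 7 rose and none fell from P7 to P60, where 10.3% and 10.6% did. Hk2, the hexokinase of rod inner segments, dipped and then rose, at 48, 54.6 and 50.2 CPM at e16.5, 28.6 CPM at P7 and 403 CPM at P60, and Hk1 rose at both steps, at 133, 99.7 and 119.9, then 257 and 724 CPM. Pfkp, a phosphofructokinase, stood at 49.5, 45.1 and 39.3, then 322 and 617 CPM, and Aldoc, an aldolase of the nervous system, at 5.7, 4.08 and 4.35, then 73.4 and 467 CPM. The neuronal enolase Eno2 stood at 21.1, 19 and 16.3, then 143 and 503 CPM. The FPKM ratios of Pfkp, Aldoc and Eno2 to their relatives rose. Of the abundant members, Gapdh, Ldha and Pkm changed less than 2-fold: Gapdh stood at 1761, 1399 and 1519, then 1029 and 1689.5 CPM, Ldha at 1555, 1453 and 1393, then 1602 and 1085 CPM and Pkm at 3956, 3422 and 3579.7, then 2177 and 3667 CPM. Aldoa rose after P7, at 881, 691 and 753, then 893 and 2119.5 CPM, and Pgk1, phosphoglycerate kinase, fell by P7, at 924, 822 and 857, then 406 and 466 CPM. Among transporters, Slc2a1, the glucose carrier GLUT1, fell, at 645, 536 and 557, then 201 and 164 CPM, and Slc16a1, the lactate carrier MCT1, rose after P7, at 70, 78.1 and 69.7, then 38.5 and 493 CPM. Of 22 nuclear mitochondrial genes, 2 rose and 3 fell over the whole span, where 23.4% and 24.2% of all kept genes did. Counts of genes encoded in mitochondria rose from 0.246% to 0.357% at e16.5 to 0.789% at P7 and 1.37% at P60. Ppargc1a, a coactivator of mitochondrial genes, stood at 2.7, 2.46 and 2.07 CPM at e16.5, 18.3 CPM at P7 and 49.8 CPM at P60.

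Of 19 lipid genes, 9 fell and 4 rose by P7, where 14.8% and 17.2% of all kept genes did. The cholesterol synthesis genes Hmgcs1 and Sqle stood at 926, 1099.8 and 1127, then 200.3 and 211 CPM and at 247, 274 and 268, then 63.5 and 59.6 CPM. Genes of very long and polyunsaturated lipids went both ways. Elovl4, an elongase, stood at 102, 99.4 and 90.9 CPM at e16.5, 404 CPM at P7 and 723 CPM at P60, and Agpat3, an acyltransferase, at 79.3, 69.3 and 74.4 CPM at e16.5, 412 CPM at P7 and 1270.3 CPM at P60. The desaturases Fads1 and Fads2 fell by P7, at 220.1, 202 and 235, then 98.4 and 70.8 CPM and at 156, 136 and 166, then 68.2 and 39.5 CPM, as did the elongase Elovl5, at 133, 151 and 133, then 51.4 and 45.3 CPM. Elovl2, an elongase of the path to docosahexaenoic acid, was highest at P7, at 58.2, 58.7 and 59, then 217 and 84.4 CPM.

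Of 30 chromatin and nuclear envelope genes, 13 fell by P7 and 17 were lower at P60, where 14.8% and 24.2% of all kept genes were. The Polycomb methyltransferases moved in opposite directions. Ezh2 stood at 223, 226 and 195, then 98.5 and 40.6 CPM, and Ezh1 at 19.9, 22.2 and 21.5, then 51.1 and 102 CPM. Per length, Ezh2 stayed the higher in every library. The FPKM ratio of Ezh1 over Ezh2 was 0.0285, 0.0276 and 0.0415 at e16.5, then 0.146 and 0.626. Lbr, the lamin B receptor that tethers heterochromatin to the nuclear envelope, stood at 241, 247 and 225, then 54.1 and 39.3 CPM, with Lmna at 11.2, 8.95 and 10.4, then 11.9 and 16 CPM and Lmnb1 at 414, 410.5 and 429, then 104 and 38.8 CPM. Hmgb3 and H2afx, a chromatin protein and a histone variant, stood at 332, 336 and 339, then 144 and 16.1 CPM and at 384, 332 and 362, then 46.9 and 16.7 CPM. Of 23 splicing regulators 3 rose and 8 fell over the whole span, where 23.4% and 24.2% of all kept genes did. Ptbp1, which holds back neuronal exons, stood at 249, 242 and 264, then 77.7 and 45.1 CPM, and Mbnl1 and Mbnl2, which favour adult exons, at 31.1, 33 and 26.4, then 118 and 279.8 CPM and at 50.2, 52.6 and 48.8, then 100.2 and 295 CPM.

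The enzymes that set local thyroid hormone levels exchanged. Dio3, which inactivates the hormone, stood at 33.2, 44.9 and 42.3 CPM at e16.5, 0.389 CPM at P7 and 0.605 CPM at P60. Dio2, which activates it, stood at 0.155, 0.147 and 0.152 CPM at e16.5, 2.76 CPM at P7 and 140.3 CPM at P60. The e16.5 libraries and the later ones did not overlap for either gene, which the rule for a call against e16.5 already requires. Dio3 was down at P7, while Dio2 had reached 1.96% of its P60 level. Of the circadian clock genes, Dbp and Per3, both outputs of the clock, stood at 5.49, 3.83 and 4.35, then 18.5 and 123 CPM and at 7.77, 6.39 and 6.77, then 22.5 and 77.9 CPM, while Arntl, the gene of BMAL1, stood at 127, 125 and 128, then 175 and 131 CPM. The labels give no hour of dissection, so that age and time of day cannot be told apart for these genes. Of 9 immediate early genes, 5 rose by P7, where 17.2% of all kept genes did. Among them were Fos, at 0.259, 0.295 and 0.556, then 5.97 and 25 CPM, and Egr1, at 0.207, 0.541 and 0.303, then 9.4 and 7.48 CPM.

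Genes of Mueller glia, the radial glia that span the retina, moved both ways. Of 17 kept genes, 9 rose and 5 fell by P7, where 17.2% and 14.8% of all kept genes did, and 8 rose and 2 fell after it, where 10.3% and 10.6% did. Glul, glutamine synthetase, fell by P7 before it rose, at 673, 751 and 732 CPM at e16.5, 273 CPM at P7 and 2615 CPM at P60. Aqp4, the water channel of their endfeet, stood at 0.363, 0.393 and 0.354 CPM at e16.5, 1.38 CPM at P7 and 177 CPM at P60, and Abca8a, a lipid transporter, at 0.104, 0.197 and 0 CPM at e16.5, 3.6 CPM at P7 and 354 CPM at P60. Rlbp1, a retinoid carrier, was earlier, at 16.6, 9.78 and 13.3, then 288 and 387 CPM. Crym, a thyroid hormone binding protein, was highest at P7, at 101, 67.6 and 77.6, then 397 and 46.1 CPM.

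Genes of vessels, microglia and blood took separate courses. Of 18 vessel genes, 14 rose by P7 and 4 after it, where 17.2% and 10.3% of all kept genes did, and none fell. Rgs5, a pericyte gene, stood at 0.155, 0.442 and 0.506 CPM at e16.5, 72.8 CPM at P7 and 103 CPM at P60, and Cdh5, the cadherin of endothelial junctions, at 0.0518, 0.246 and 0.101, then 7.39 and 4.24 CPM. Slco1a4, an organic anion transporter of the blood-retina barrier, came late, at 0.207, 0 and 0.152, then 1.27 and 26.5 CPM. Kdr, which retinal progenitors also express, changed less than 2-fold, at 361, 354 and 296, then 366 and 199 CPM. Of 16 kept microglia genes, 1 (Trem2) rose by P7, where 17.2% of all kept genes did. After P7 2 fell, Cx3cr1 and Tyrobp, which was near the share of all kept genes, 10.6%. Csf1r stood at 8.24, 6.98 and 7.94, then 13.3 and 11.3 CPM. Adult globin genes fell, with Hbb-bs at 205, 347 and 111, then 28.4 and 4.06 CPM, and were uneven between the e16.5 libraries. Of 20 lens and cornea genes, 8 were in the table and 3 passed the filter on low levels, and the highest value among them was that of Cryab at P60, 15.1 CPM.

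Some genes were highest in the P7 library. With at least 10 CPM at P7, 135 ranked genes rose by P7 and fell by P60. The 8 with the largest smaller step were Pax7, Xkrx, Tmem92, Prob1, Col17a1, Gje1, Robo3 and Slc6a2. Pax7, a homeodomain factor known from muscle and midbrain, stood at 0.0518, 0.0983 and 0 CPM at e16.5, 33.8 CPM at P7 and 0 CPM at P60. Neither age beside P7 gave more than a trace of it. Slc6a2, the noradrenaline transporter, stood at 0.363, 0.295 and 0.354 CPM at e16.5, 11.5 CPM at P7 and 0.692 CPM at P60. Col17a1, a collagen of epithelial hemidesmosomes, stood at 2.54, 2.36 and 2.07 CPM at e16.5, 52.9 CPM at P7 and 3.72 CPM at P60. The P7 levels of these 8 ran from 10.2 to 113 CPM, and each rests on 1 library. The 11 muscle genes in the table summed to 13.2 CPM in that library, with Acta1 at 1.84 CPM and Myh3 at 3.53 CPM. Their sum was 13.7, 8.26 and 6.77 CPM at e16.5 and 8.78 CPM at P60. Of the 4 kept, 1 (Actn2, log2 ratio 1.56) rose by P7 and 1 fell after it, where 17.2% and 10.6% of all kept genes did. Whether muscle added to the P7 library was not tested.

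Genes of the matrix between cells moved both ways. Of 17 kept genes, 8 rose and 4 fell by P7, where 17.2% and 14.8% of all kept genes did, and 4 rose and 8 fell after it, where 10.3% and 10.6% did. Vcan, the versican of embryonic matrix, stood at 57.3, 70.8 and 49.3, then 23.7 and 2.94 CPM, and Tnr, a tenascin of mature neural matrix, at 3.94, 5.26 and 4.6, then 35.6 and 78.3 CPM. Tnc, another tenascin, was highest at P7, at 4.25, 1.97 and 2.17, then 99.7 and 33 CPM.

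**Figure D5:**
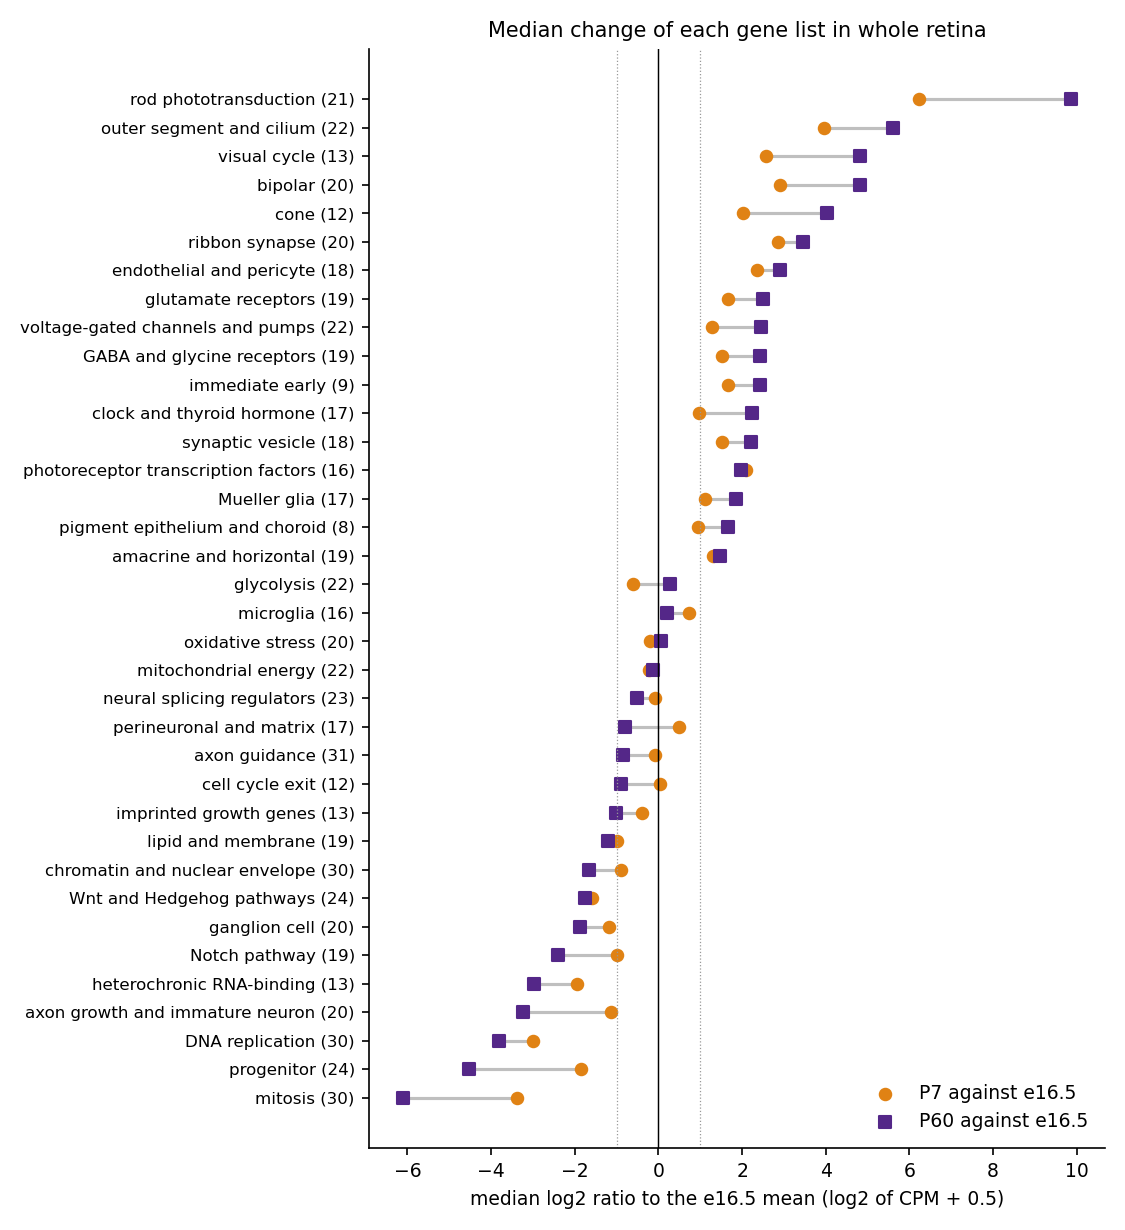
Median log2 ratio to the e16.5 mean of each gene list at P7 (circles) and at P60 (squares), with the number of kept genes in parentheses and dotted lines at a 2-fold change. Rod phototransduction lies at the top, with 6.22 at P7 and 9.87 at P60, and mitosis at the bottom, with -3.38 and -6.11.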

How the data were processed

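RNA levels of whole retina were taken from a gene table of the series, in 5 of its 14 libraries. Per the file headers, columns of counts and FPKM stand beside the authors' own comparisons. The deposited counts are whole numbers, treated as estimated counts made by the authors because Salmon 0.9.1 appears in the submitters' processing notes, as do DESeq2 1.20.0 and GRCm38.p6, none with a stated role. The FPKM values deposited by the authors use a gene length that can differ between libraries, and served for ratios between related genes and as an alternative. The authors' adjusted p-values were not used, nor were the log2 ratios deposited by the authors. The kit that made the whole retina libraries is not stated in the labels used here. The lowest of the genes' highest counts is 10.

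CPM were scaled with TMM factors from edgeR 4.0.16 in R 4.3.3, and further steps were run in Python 3.11.15. Log2 ratios used a pseudocount of 0.5 CPM on genes with a mean over the ages of at least 1 CPM, and a change was called at 2-fold and, against e16.5, outside the range of the e16.5 libraries. A count of 0 allows up to 3 counts, or 0.106 to 0.155 CPM. The calling steps were checked on simulated counts. Positions are from an annotation of GRCm38, in which 20775 of 20902 genes were found, and promoter windows are from RefSeq (GRCm38.p6).

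The 41 gene lists hold 755 genes, 734 of them in the table. Members, lists and pairs were chosen with earlier results of these data known. Genes named by rule were first taken from the ranked genes, with at least 10 CPM at the higher age. These were the 8 largest rises and falls of each comparison and the 8 that most clearly turned at P7 in each direction. Added to them were up to 4 members of each list with the largest change to P60, its most abundant member, and all members of the pairs. This gave 247 genes in all, of which a part is printed. Other list members were named after their values were seen. Some members are counted in the lists and pairs but not reported here by name. The 3 e16.5 libraries differed by more than sampling noise and were counted as 3. The pairs stood at 17.2 (replicates 1 and 2), 6.79 (1 and 3) and 20.1 (2 and 3) times the chi-square expected per gene. Alternatives were total counts, DESeq2 1.42.0 size factors, totals without the top 50 genes, rescaled FPKM, other filters (none, 5 CPM) and pseudocounts (0.1 and 2 CPM), calls by 2-fold alone, and leaving out each e16.5 library. FPKM as deposited and CPM centred on the median were added after the data were seen.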

Additional observations from a re-analysis of the deposited data

Results flagged for a closer look

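Sorted microglia of the same ages gave a second view of some genes that changed in whole retina. Among the genes named by rule with at least 10 CPM in microglia at either age compared, 6 moved at least 2-fold one way in whole retina. These 6 moved at least 2-fold the other way in microglia, where the 3 libraries of one age did not overlap those of the other. How many named genes passed the floor of 10 CPM, or moved the same way in both tissues, is not given. The 6 are therefore examples and not a rate. The values below were scaled over all 14 libraries, microglia values are mean ± SD over 3 libraries, and the difference between the tissues was not tested.

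Aldoa, an aldolase of glycolysis, rose in whole retina from 752 CPM at e16.5 and 899 CPM at P7 to 2082 CPM at P60, log2 ratios of 1.45 over the whole span and 1.25 from P7. In microglia it fell from 270.1 ± 50.5 CPM at e16.5 and 281 ± 145 CPM at P7 to 63.9 ± 26.9 CPM at P60. Diaph3, an actin nucleator, rose in whole retina from 20.6 CPM at e16.5 to 52.2 CPM at P60, a log2 ratio of 1.30, and fell in microglia from 48.5 ± 9.45 to 10.5 ± 8.16 CPM. Mitf, a factor of pigment cells that microglia also express, rose in whole retina from 4.73 CPM at P7 to 11 CPM at P60, a log2 ratio of 1.16, and fell in microglia from 129 ± 21.5 to 32.9 ± 9.09 CPM. Hspa1a, a heat shock protein, rose in whole retina by a log2 ratio of 2.00 from e16.5 to P7, from 2.27 to 10.9 CPM, and fell in microglia from 92.4 ± 46.3 to 29.8 ± 16.7 CPM. Gadd45a, a stress-induced growth arrest gene, had a log2 ratio of -1.98 from e16.5 to P60 in whole retina, from 81.9 to 20.7 CPM, and rose in microglia from 8.97 ± 2.41 to 44.7 ± 29.1 CPM. Gngt2, the cone transducin gamma gene, had a log2 ratio of -1.78 from P7 to P60 in whole retina, from 196 to 55.4 CPM, and rose in microglia from 47.7 ± 4.69 to 120 ± 40 CPM. Over all 14810 kept genes, by the same rule without the floor of 10 CPM, 68 moved in opposite directions from e16.5 to P7. From P7 to P60 113 did, and over the whole span 169.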

How the results depend on the processing

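The 2166 ratios of the list and named genes and the 123 list medians (120 with the filter of 5 CPM) were recomputed under each alternative in scaling, unit, filter and pseudocount, and the 1444 ratios and 82 medians against e16.5 without each e16.5 library. A filter or a pseudocount cannot turn the direction of a gene, and the count scalings moved no ratio by more than 0.334, so direction says nothing there. Of the 1366 gene ratios past 2-fold, 1308 were still past it with total counts, 1357 with DESeq2 size factors, 1321 with totals without the top 50 genes, 1347 with centred CPM, 1293 with a pseudocount of 2 CPM and 1283 with FPKM as deposited, and of 1015 against e16.5, 1004 to 1008 without each e16.5 library. With FPKM rescaled to the same sum fewer were left, 1173 of the 1366. Direction was kept by all 1366 with FPKM as deposited and by all 1015 without each e16.5 library. With FPKM rescaled to the same sum 1361 kept it, and 5 reversed: Khdrbs2, Sema4d and Smarcc1 became higher at P7 than at e16.5, with log2 ratios of 0.071, 0.22 and 0.16, and Pola1 and Sema4d higher at P60 than at e16.5, with 0.63 and 0.54. The FPKM of all genes summed to 1585450 to 1648710 in the e16.5 libraries, 948340 in the P7 library and 949070 in the P60 library, so rescaling raised the later ages against e16.5. All 68 list medians past 2-fold kept their direction except 2, those of lens and cornea genes with a filter of 5 CPM, which went to 1.15 (P60 against P7) and 4.07 (P60 against e16.5) because fewer genes were left. Of the 68, 56 were still past 2-fold with rescaled FPKM, 60 with no filter and 60 with a pseudocount of 2 CPM. The other settings that used all libraries left 62 to 68. Of 56 medians against e16.5, 52 to 56 were still past it without each e16.5 library. Counts moved by more than 1.5 times with total counts, where 1463 genes fell by P7, and with rescaled FPKM, where 4909 genes rose and 800 fell by P7 and 5824 rose and 1596 fell over the whole span. Counts of genes by course moved as much: genes highest at P7 numbered 345 with total counts, 337 with rescaled FPKM and 143 with a filter of 5 CPM, and genes lowest at P7 numbered 65, 57 and, with a pseudocount of 2 CPM, 59. Genes falling at both steps numbered 311 with rescaled FPKM, and genes rising at both steps 410 with the pseudocount of 2 CPM. Total counts moved the median of all genes by 0.30 at the first step, totals without the top 50 genes by 0.26 and rescaled FPKM by 0.70; changes near 2-fold are therefore uncertain by that much. Without each e16.5 library in turn, 2516 to 2633 genes rose and 2184 to 2233 fell by P7, and 3450 to 3506 rose and 3580 to 3614 fell over the whole span. No paired analysis was possible because P7 and P60 have 1 library each without a replicate number, and the results come from no test. Depth limits genes under 0.106 to 0.155 CPM, where fewer than 3 counts were seen.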

Other observations

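Genes that handle oxidants moved both ways. Of 20 kept genes, 6 rose and 7 fell by P7, where 17.2% and 14.8% of all kept genes did. Catalase (Cat), the peroxidase Gpx1 and thioredoxin (Txn1) fell: Cat stood at 136, 148 and 147, then 49.5 and 29.4 CPM, Gpx1 at 91.7, 94.3 and 92.1, then 41.2 and 20.1 CPM and Txn1 at 127, 131 and 136, then 45.0 and 21.7 CPM. The metallothionein genes, whose small proteins bind metals, rose from low levels, with Mt1 at 1.30, 0.639 and 1.36, then 6.82 and 32.2 CPM and Mt2 at 0.311, 0.0983 and 0.152, then 1.84 and 7.44 CPM. Nxnl1, which encodes a thioredoxin-like protein of photoreceptors and a factor that supports cones, stood at 1.19, 1.18 and 0.910 CPM at e16.5, 85.9 CPM at P7 and 301 CPM at P60, and Nxnl2 at 2.90, 2.06 and 2.63, then 58.1 and 63.9 CPM. Gpx4, the peroxidase that repairs membrane lipids, changed less than 2-fold, at 172, 144 and 170.2, then 145 and 186 CPM.

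Imprinted growth genes, which are read from a single parental copy in many tissues, differed widely in level at e16.5. Of 13 kept genes, 3 fell and 1 rose by P7, where 14.8% and 17.2% of all kept genes did, and 7 were lower at P60, where 24.2% were. Grb10, an adaptor that restrains growth factor signalling, stood at 1191, 1404 and 1229 CPM at e16.5, 165 CPM at P7 and 105 CPM at P60. Plagl1, a zinc finger factor, stood at 166, 184 and 159, then 23.2 and 8.99 CPM, and Cdkn1c, a cyclin-dependent kinase inhibitor, at 153, 164 and 155, then 49.9 and 15 CPM. Nnat, neuronatin, was lost later, at 902, 877 and 968, then 480.1 and 14.5 CPM. Impact and Peg3 rose after P7 instead, at 35.7, 36.7 and 37.5, then 38.0 and 289.8 CPM and at 135, 144 and 137, then 123 and 249 CPM. Igf2 was highest at P7, at 17.8, 9.39 and 10, then 34.1 and 10.2 CPM.

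Astrocyte and oligodendrocyte genes differed in course. Gfap, the filament of astrocytes, stood at 1.09, 0.442 and 0.607, then 9.86 and 21.2 CPM and S100b at 0.881, 0.147 and 0.152, then 4.70 and 11.2 CPM. Mog, a myelin protein, stood at 1.04, 1.08 and 1.26, then 1.80 and 0.259 CPM, and Cnp, an enzyme of oligodendrocytes that other cells also express, at 39.9, 32.0 and 31.0, then 45.8 and 15.7 CPM.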
